A study of Homo sapiens with 3 samples.

Results

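Cytokine and chemokine genes of the secretory phenotype of senescent cells were examined in HepG2 cells treated with etoposide. They are IL8 (now named CXCL8), IL6, IL1A, IL1B, IL1RN, CXCL1, CXCL2, CXCL3, CCL2 and CCL20. Every probe that carried 1 of these names was taken, whatever its signal, which gave 10 genes of 27274 gene names and 13 probes of 34127. HepG2 is an established human liver cancer line with wild-type p53, and etoposide is an inhibitor of topoisomerase II that leaves DNA double-strand breaks. RNA was taken from control cells, which the labels name untreated, from cells given 10 μM etoposide (the low dose) and from cells given 100 μM (the high dose), all at 30 h. The study used the low dose as a senescence condition and the high dose as an apoptosis condition and compared their transcriptomes. Each condition had 1 sample on 1 one-color array, so differences between conditions are described without a test. The error given is the spread (SD) between repeated spots of similar signal on the same arrays, which covers neither cultures nor RNA preparations.

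Senescent cells with persistent DNA damage are known to secrete inflammatory cytokines and chemokines, a state called the senescence-associated secretory phenotype. IL-1α at the cell surface signals through the IL-1 receptor to NF-κB, which acts together with C/EBPβ at the promoters of IL6, IL8 and the CXCL genes, and the IL-1 receptor antagonist encoded by IL1RN blocks the same receptor. Liver cells answer IL-6 and IL-1 with the acute phase response, and hepatoma lines are widely used to study it.

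NF-κB sites are the shared regulatory feature for which these genes are best known, so the promoters of 4 of them are shown. Sequences came from RefSeq on GRCh38.p14, in which 9 of the 10 genes were matched, with 12 start sites. Each run is the 250 bases before the start site, written 5′ to 3′ on the strand of the gene, and capitals mark GGNNTTTCC or its reverse complement.
CCL20 (chr2:227813592-227813841, plus strand): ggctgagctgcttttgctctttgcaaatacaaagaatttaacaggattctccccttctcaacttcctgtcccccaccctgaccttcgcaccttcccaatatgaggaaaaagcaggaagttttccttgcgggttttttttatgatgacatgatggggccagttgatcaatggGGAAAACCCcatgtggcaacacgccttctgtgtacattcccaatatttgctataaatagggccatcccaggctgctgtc
IL1RN (chr2:113127348-113127597, plus strand): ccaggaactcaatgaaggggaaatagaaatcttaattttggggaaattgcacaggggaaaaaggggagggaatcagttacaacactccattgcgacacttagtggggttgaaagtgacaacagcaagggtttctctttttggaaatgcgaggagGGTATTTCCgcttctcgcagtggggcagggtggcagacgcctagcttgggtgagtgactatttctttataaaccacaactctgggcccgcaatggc
CXCL8 (chr4:73740319-73740568, plus strand): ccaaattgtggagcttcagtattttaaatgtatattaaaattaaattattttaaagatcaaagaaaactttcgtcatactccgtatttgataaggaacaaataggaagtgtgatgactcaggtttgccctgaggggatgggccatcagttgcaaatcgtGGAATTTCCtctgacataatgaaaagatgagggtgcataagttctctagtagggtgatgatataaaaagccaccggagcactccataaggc
CXCL1 (chr4:73869143-73869392, plus strand): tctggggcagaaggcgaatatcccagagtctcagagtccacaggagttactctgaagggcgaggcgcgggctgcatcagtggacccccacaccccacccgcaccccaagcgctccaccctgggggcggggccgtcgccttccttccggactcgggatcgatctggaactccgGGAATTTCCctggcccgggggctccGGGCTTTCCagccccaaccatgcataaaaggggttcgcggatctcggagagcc
This motif, searched on both strands, was present in 7 of the 12 promoters, each of a different gene, and in 5.48% of 35116 promoters of the same length. The match began 79 bases before the start of CCL20, 96 before 1 of the 3 starts of IL1RN, 91 before CXCL8 and 72 before IL6. CXCL1 held matches at 78 and 53 bases, as did CXCL3, and CXCL2 held them at 77 and 53. The sequences of these CXCL promoters were nearly alike around both matches, so they are not separate observations. No promoter of IL1A or IL1B held the motif. Because the genes are best known for such sites, their share is a description and not a test. The AP-1 motif TGANTCA was found in 4 of the 12 promoters, those of both starts of IL1A, of CXCL8 and of another start of IL1RN, and in 6.57% of all promoters. A match is a run of letters and not evidence of binding in these cells.

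Of the 10 genes, IL1RN and CCL20 were well above background, by the call of the scanner software, on all 3 arrays. The other 8 genes were well above background on none. Thus 2 of 10 genes (20%) were detected on at least 1 array, whereas the share over all genes was 63.2%, and 55.7% of all genes were detected on every array. In these bulk samples, fewer cells expressing a gene and less RNA per cell cannot be told apart. The lowest signal well above background was 19.5 in the control, 22.7 at 10 μM and 21.6 at 100 μM, in arbitrary units. These limits equal 3.79%, 4.22% and 5.00% of the 75th percentile of each array. RNA below them was not detectable at this sensitivity, and the 8 genes are therefore not called absent.

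**Figure D1:**
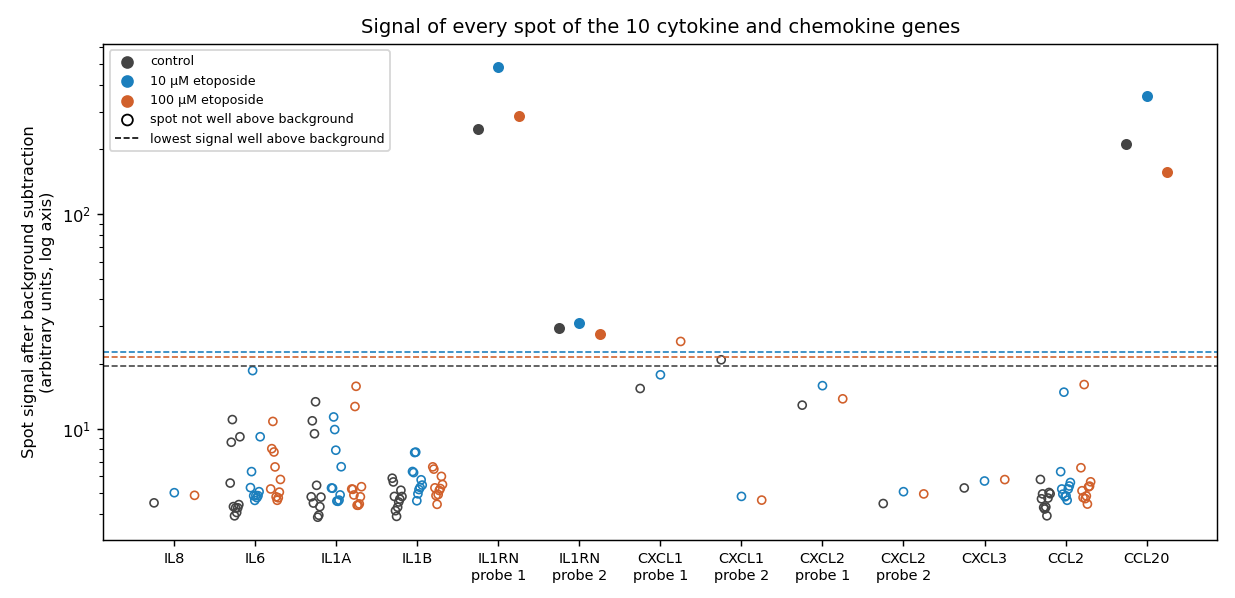
Signal of every spot of the 13 probes (y axis, arbitrary units, log axis) by gene and array, with filled points well above background, open points not, and dashed lines at the lowest signal well above background on each array. The probes of IL1RN and CCL20 are filled on all 3 arrays, and all spots of the other 8 genes are open.

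The 8 undetected genes were covered by 10 probes and 46 spots per array, since the array carried the probes of IL6, IL1A, IL1B and CCL2 in 10 spots each. None of the 46 spots was well above background on any array. A weaker call of the software, a signal significantly above the local background, was met by 14 spots in the control, 12 at 10 μM and 10 at 100 μM. For the remaining 32, 34 and 36 spots the software had replaced the measured value by a surrogate derived from the noise. On the same arrays, the 95th percentile of 153 negative control spots after background subtraction was 4.61, 6.55 and 5.29. This value was exceeded by 13, 10 and 10 of the 46 spots in the same background-subtracted measure. On each array that share was larger than among the negative control spots, where the percentile fixes it. The measure is taken before surrogates replace low values, so the count cannot be read from the signals given here for single probes.

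Among the IL-1 agonists, IL1A (NM_000575, chr2:113248833-113248892 on hg18, minus strand) had a signal of 5.89 in the control, 6.16 at 10 μM and 4.75 at 100 μM. These are geometric means over 10, 10 and 7 spots without outliers, and the brightest single spots were 13.3, 11.3 and 15.7. IL1B, at chr2:113303900-113303959 on the minus strand, gave 4.75, 5.66 and 5.41 over 10, 9 and 10 spots, and its brightest spots 5.87, 7.76 and 6.63. All of the spots of IL1B in the control, 8 of 10 at 10 μM and 9 of 10 at 100 μM were surrogates. Neither agonist had a fold change that could be stated, because neither side of any comparison was well above background.

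IL6, the cytokine that drives the hepatic acute phase response, was measured at chr7:22737732-22737791 (hg18, plus strand). Its signal was 5.53 in the control, 5.40 at 10 μM and 6.11 at 100 μM. The median spot was 4.37, 4.98 and 5.51, and the brightest was 11.0, 18.6 and 10.8, each below the detection limit of its array. The signal was significantly above the local background in 5, 3 and 4 of the 10 spots. IL6 was thus not detectable in any condition.

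The ELR-type CXC chemokines, which attract neutrophils through CXCR1 and CXCR2, were likewise dim. IL8 (chr4:74828129-74828188 on hg18, as for the positions that follow, plus strand) was a surrogate value on every array, of 4.50 in the control, 5.02 at 10 μM and 4.88 at 100 μM. CXCL3 (chr4:75121566-75121625, minus strand) was also a surrogate throughout, at 5.28, 5.69 and 5.78. CXCL1 was measured by 2 probes whose readings differed. The probe at chr4:74954510-74954569 read 15.4, 17.8 and 25.5, each significantly above the local background but not well above it, although the last value exceeded the lowest detected signal of its array. The probe at chr4:74955714-74955773 read 20.9 in the control, also above the lowest detected signal there but not called well above background, and held surrogates of 4.83 and 4.64 at 10 μM and 100 μM. CXCL2 also had 2 probes, which read 12.9, 15.8 and 13.8 at chr4:75183206-75183265 and surrogates of 4.47, 5.08 and 4.96 at chr4:75181849-75181908. No probe of these 4 genes was well above background in any condition.

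The first probes of CXCL1 and CXCL2 cover matching parts of these paralogs. Their probe sequences shared a stretch of 37 bases, shown because it bears on which transcript a signal came from, with capitals at the bases that differ.
CXCL1: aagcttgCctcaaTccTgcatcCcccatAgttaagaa
CXCL2: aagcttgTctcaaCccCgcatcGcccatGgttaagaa
The stretches were identical at 32 bases and different at 5, an identity of 86.5%. Hybridization of either transcript to the probe of the other was not tested, so the faint signals of these probes are uncertain as to gene.

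CCL2, which attracts monocytes through CCR2, was measured in 10 spots at chr17:29608163-29608222 (hg18, plus strand). Its signal was 4.63 in the control, 5.00 at 10 μM and 5.17 at 100 μM. The brightest spots were 5.79, 14.8 and 16.0, and 8, 9 and 9 of the 10 spots were surrogates. CCL2 was not detectable in any condition.

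**Figure D2:**
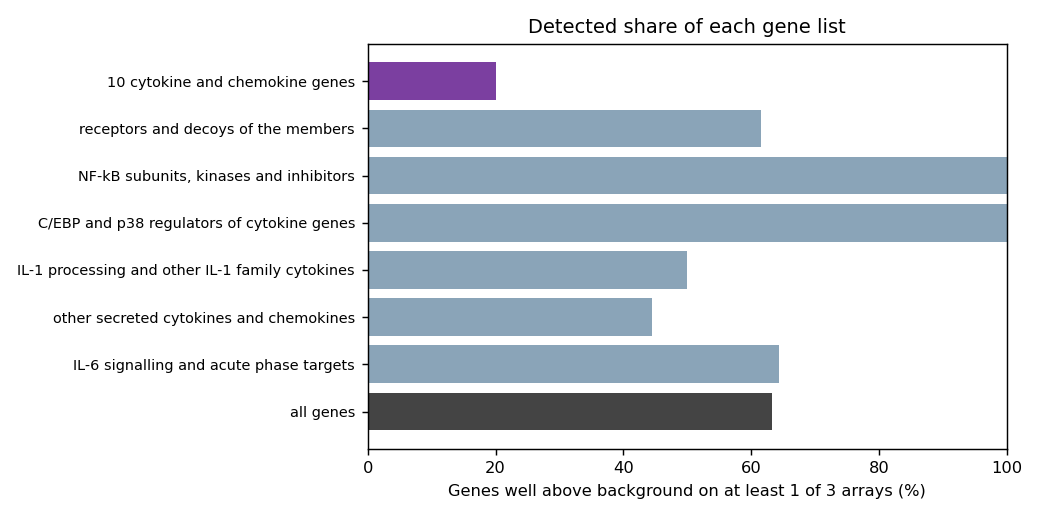
Share of genes well above background on at least 1 of the 3 arrays (x axis, percent), for the 10 cytokine and chemokine genes, 6 lists of genes around them and all genes. The bar of the 10 genes ends at 20% and that of all genes at 63.2%, whereas the NF-κB list and the list of C/EBP and p38 regulators reach 100%.

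CCL20, the ligand of CCR6 and an attractant of lymphocytes and dendritic cells, was higher at 10 μM than in either other condition. It was measured by 1 spot (NM_004591), whose probe aligned to chr2:228389344-228390080 on hg18, plus strand. This span of 737 bases for a probe of 60 bases crosses an intron, so the probe spans a splice junction. The probe begins with the end of the coding sequence, shown with the stop codon in capitals.
CCL20 probe, first 23 bases: gtaaaaaagtcaagaacatgTAA
Its signal was 211 in the control, 355 at 10 μM and 158 at 100 μM, all well above background. Relative to the 75th percentile of the array, these signals were 41.1%, 66.1% and 36.5%. On this scale CCL20 was 1.61-fold higher at 10 μM than in the control, a log2 difference of 0.69 with a spot-to-spot SD of 0.08. Among all genes measured in that comparison, 7.10% had a higher fold change. The 100 μM value was close to control, with a ratio of 0.887 (log2 −0.17, spot SD 0.10). Between the doses, CCL20 was 1.81-fold lower at 100 μM (log2 −0.86, spot SD 0.09), and 4.43% of genes were lower still.

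IL1RN, whose product competes with IL-1α and IL-1β for their receptor, was also highest at 10 μM by its brighter probe. That probe (NM_173842, chr2:113608002-113608061 on hg18, plus strand) had a signal of 250 in the control, 487 at 10 μM and 285 at 100 μM. These were 48.6%, 90.8% and 65.9% of the 75th percentile. IL1RN was therefore 1.87-fold higher at 10 μM than in the control (log2 0.90, spot SD 0.08), and 4.21% of genes had a higher fold change. At the high dose it was 1.36-fold higher than control (log2 0.44, spot SD 0.09), with 25.8% of genes higher. It was 1.38-fold lower at 100 μM than at 10 μM (log2 −0.46, spot SD 0.07), and 10.3% of genes were lower.

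The dimmer probe of IL1RN, at chr2:113607110-113607169 in the same reference transcript, differed between the arrays by less than its spot SD. Its signal was 29.3 in the control, 30.9 at 10 μM and 27.6 at 100 μM, which were near the detection limit but well above background on all 3 arrays. Its ratios were 1.01 at 10 μM over control, 1.12 at 100 μM over control and 1.11 between the doses, with spot SDs of 0.34, 0.33 and 0.34 on the log2 scale. The brighter probe exceeded the dimmer one in log2 difference by 0.89 (spot SD 0.35) for 10 μM over control and by 0.28 (spot SD 0.34) for 100 μM over control. Between the doses the gap was −0.61 (spot SD 0.35). The higher value of IL1RN at 10 μM was therefore seen with 1 of its 2 probes.

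**Figure D3:**
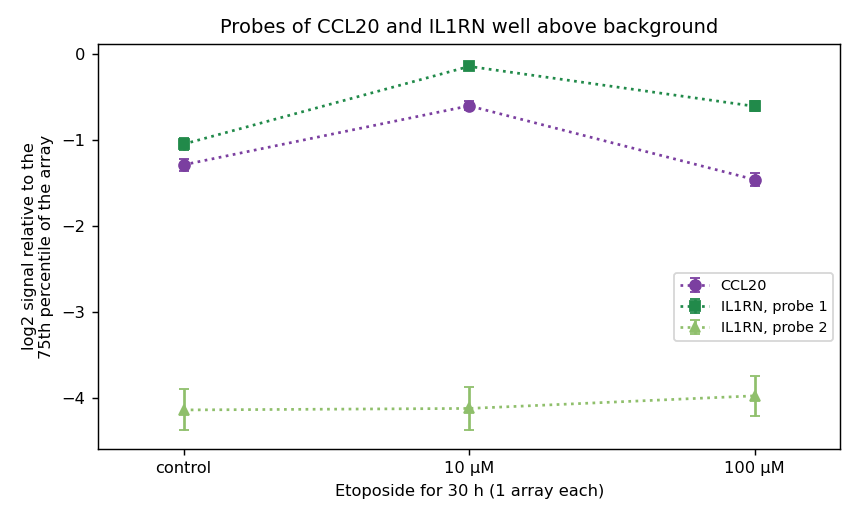
Log2 signal relative to the 75th percentile of the array (y axis) at each etoposide dose (x axis, 1 array each) for CCL20 and both probes of IL1RN, with bars of ± 1 spot-to-spot SD. CCL20 and the brighter IL1RN probe (probe 1) peak at 10 μM, and the dimmer IL1RN probe (probe 2) differs between arrays by less than its bars.

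With the study's thresholds, more than 3-fold over control and more than 2-fold between doses, no member passed in any comparison, and only IL1RN and CCL20 could have passed. At the low dose over control, 1.29% of 16659 genes measured were more than 3-fold higher and 0.36% more than 3-fold lower. At the high dose over control, 1.87% of 16775 genes were higher and 1.66% lower. Between the doses, 3.96% of 16686 genes were more than 2-fold higher at 100 μM and 3.66% lower. With 2 measurable genes, a count of 0 is near these shares and is not a result about the genes.

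CCL20 between the doses was the comparison whose side of the threshold changed with the scaling. It was 1.81-fold lower at 100 μM with the 75th percentile, but 2.25-fold lower without scaling, 2.18-fold with the median and 2.12-fold with the spike-in controls, which places it past 2-fold in 3 of 7 scalings. The same 3 scalings lowered the other log2 differences that involve 100 μM, to between 0.15 and 0.27 for IL1RN over control, between −0.46 and −0.34 for CCL20 over control and between −0.77 and −0.69 for IL1RN between the doses. They also shifted the median of all genes between the doses by −0.31, −0.27 and −0.22 on the log2 scale. Relative to the median of all genes, the log2 difference of CCL20 was between −0.97 and −0.95 in all 7 scalings. On the same footing, CCL20 was 0.69 to 0.72 above the median of all genes at 10 μM over control, and IL1RN 0.91 to 0.94 above it.

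**Figure D4:**
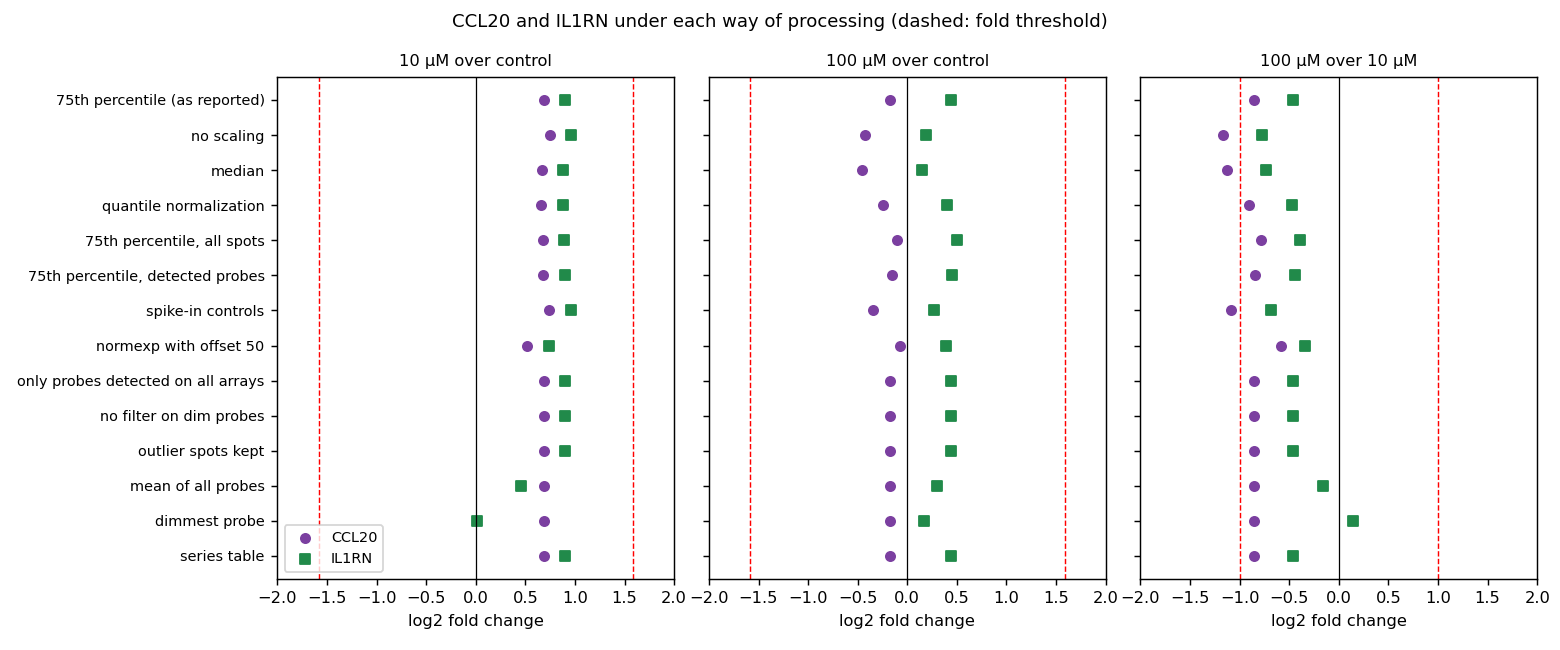
Log2 fold change (x axis) of CCL20 and IL1RN in the 3 comparisons under each way of processing the arrays (rows), with dashed lines at 3-fold over control and 2-fold between doses. The 10 μM values of CCL20 stay between 0.52 and 0.75, CCL20 crosses 2-fold lower between the doses in 3 rows, and IL1RN lies at 0.02 when its dimmer probe is used.

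Of the receptors of these ligands, 8 of 13 were detected on at least 1 array (61.5%), near the 63.2% of all genes. IL6ST (gp130), the signalling chain shared by the IL-6 family, had a signal of 2261 in the control, 1122 at 10 μM and 2096 at 100 μM. It was 2.32-fold higher at 100 μM than at 10 μM by its brightest probe and 1.80-fold to 2.17-fold by the 5 others, of which 2 were past 2-fold, and the brightest probe passed 2-fold in 4 of 7 scalings. No other receptor passed a threshold. CCR6, the receptor of CCL20, read 219, 182 and 276, log2 differences from control of −0.33 and 0.58. IL1R1, the signalling IL-1 receptor, read 834, 753 and 799. Its co-receptor IL1RAP read 301, 228 and 283, and the inhibitory receptor SIGIRR 428, 487 and 586. Readings here and below are signals before scaling, whereas ratios and log2 differences are scaled. At 100 μM over control the scaled log2 difference was 0.19 for IL1R1 and 0.16 for IL1RAP, although both readings were lower than in the control. The median log2 difference of the list was −0.04 at 10 μM and 0.33 at 100 μM over control, beside −0.04 and 0.09 for all genes.

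The listed regulators upstream of these cytokines were all detected. All 20 genes of NF-κB subunits, kinases and inhibitors were well above background on at least 1 array, and none passed 3-fold over control. Their median log2 difference was 0.15 at 10 μM and 0.10 at 100 μM over control, and −0.15 between the doses against 0.11 for all genes. RELB, a subunit of the non-canonical pathway, read 1470, 3154 and 1760 and was 2.06-fold and 1.42-fold above control. NFKBIA, which encodes the inhibitor IκBα and is itself a target of NF-κB, read 5390, 6122 and 3133, ratios of 1.09 and 0.690. TNFAIP3, a feedback inhibitor, read 2132, 2502 and 1824, and the kinase CHUK 2247, 2835 and 2023.

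Between the doses, 2 genes of this list passed 2-fold. BIRC3, an inhibitor of apoptosis induced by NF-κB, read 59.1, 95.4 and 38.1 and was 2.02-fold lower at 100 μM, with a spot SD of 0.20 on the log2 scale, so that its side of the threshold is within spot noise. TRAF1 fell short of the detection limit at 10 μM and was at least 2.31-fold higher at 100 μM, where its signal was 42.2 (log2 1.21, spot SD 0.35). Its side of the threshold is within spot noise too, and it passed in 3 of 7 scalings. All 10 C/EBP and p38 regulators were detected and none passed a threshold. CEBPB, the C/EBP factor of the secretory phenotype, read 9947, 9299 and 5153, with ratios to control of 0.896 and 0.615. CEBPD read 9511, 8048 and 7199, CEBPA 3560, 3175 and 3297, and ZFP36L1, which promotes the decay of cytokine mRNAs, 3743, 4425 and 2248. The list had a median log2 difference of −0.16 at 10 μM and −0.26 at 100 μM over control.

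Of 18 genes of IL-1 processing and other IL-1 family cytokines, 9 were detected (50%) and none passed a threshold. CAPN2, a calpain, the protease family that cleaves pro-IL-1α, read 2054, 4559 and 3131 and was 2.13-fold and 1.81-fold above control. CAPN1 read 647, 808 and 919, CASP4 5055, 4706 and 4620, and CASP5 1317, 1318 and 1237. The median log2 difference of the list was 0.03 at 10 μM and 0.47 at 100 μM over control.

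Among 36 other secreted cytokines and chemokines, 16 were detected (44.4%) and IL11 alone passed 3-fold. IL11, a cytokine of the IL-6 family, read 309 in the control, 1103 at 10 μM and 1186 at 100 μM. It was 3.42-fold and 4.56-fold above control, and it stayed past 3-fold at both doses in all 7 scalings. LIF, of the same family, read 681, 1729 and 1008 by its brighter probe, and was 2.43-fold and 1.76-fold above control. Its dimmer probe read 12.1, 24.8 and 26.8, near the detection limit, and was at least 1.22-fold and 1.63-fold above control. For 100 μM over 10 μM, the brighter LIF probe had a ratio of 0.723 and the dimmer one 1.34. IL32 read 2555, 5082 and 5613, CCL15 read 1159, 1514 and 1786, and MIF, a constitutively made cytokine, 186259, 182774 and 143410. The median log2 difference of the list was 0.35 at 10 μM and 0.81 at 100 μM over control.

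Downstream of IL-6, 9 of 14 signalling and acute phase genes were detected (64.3%), and the 2 that passed 3-fold over control went in opposite directions. HAMP, which encodes hepcidin and is induced by IL-6 in hepatocytes, read 14750, 4280 and 4005. It was 3.60-fold lower at 10 μM than in the control (log2 −1.85) and also past 3-fold at 100 μM (log2 −1.63), the latter in 5 of 7 scalings. SERPINA3, an acute phase protease inhibitor, read 4387, 7016 and 11907, 1.53-fold and 3.22-fold above control. Its value at 100 μM over control passed in 4 of 7 scalings, as did its 2.10-fold difference between the doses, and its 3 probes gave 3.18-fold to 3.29-fold over control. STAT3, which transmits the IL-6 signal, read 206, 370 and 347, and the fibrinogen chain FGG 31046, 29112 and 39920. Haptoglobin (HP) read 106583, 86763 and 105796, and the orosomucoid gene ORM1 33879, 41110 and 38259. By its brightest probe, HP read below control at 100 μM while its scaled log2 difference was positive. The same held for the brightest probes of IL6ST, IL1R1, IL1RAP, TNFAIP3, CHUK, CEBPA, CASP4 and CASP5. For each of these genes the sign of that difference turned with the scaling. The median log2 difference of the IL-6 signalling and acute phase list was −0.12 at 10 μM and 0.42 at 100 μM over control. Over the 7 scalings, the sign of these list medians over control turned for the receptors at 10 μM (−0.07 to 0.02) and for the NF-κB list at 100 μM (−0.19 to 0.17). Relative to the median of all genes at 100 μM over control, the other secreted cytokines and chemokines lay 0.50 to 0.72 higher, and the C/EBP and p38 list had differences of −0.36 to −0.28.

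**Figure D5:**
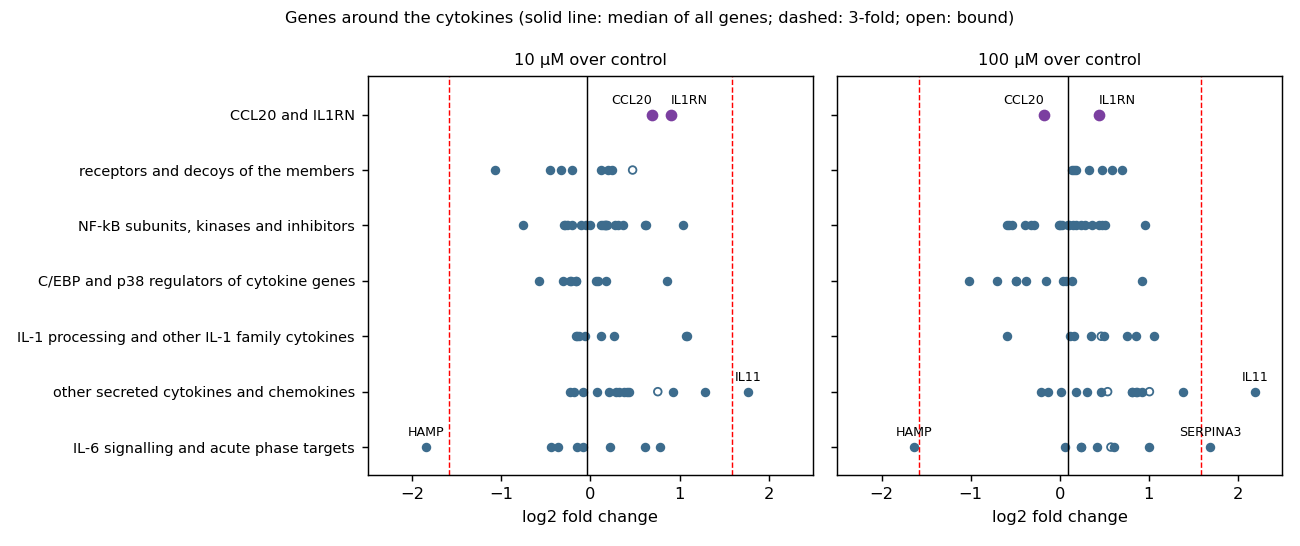
Log2 fold change over control (x axis) at 10 μM and 100 μM etoposide for CCL20, IL1RN and each measured gene of 6 surrounding lists (rows), with a solid line at the median of all genes, dashed lines at 3-fold and open points for bounds. IL11 lies past 3-fold higher in both panels, HAMP past 3-fold lower in both, and CCL20 and IL1RN lie between the dashed lines.

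All 9 hepatocyte markers were well above background on every array. Their summed signal was 235058 in the control, 256166 at 10 μM and 256599 at 100 μM. Sums in this paragraph are of signals before scaling. After scaling, the median log2 difference of the hepatocyte markers was −0.06 at 10 μM and 0.47 at 100 μM over control. Over the 7 scalings the sign of the median at 10 μM turned (−0.08 to 0.03). These markers did not move together, since ALB read 3966, 2473 and 2327, log2 differences from control of −0.74 and −0.52. HNF4A read 50.7, 30.4 and 53.7 and was 2.19-fold higher at 100 μM than at 10 μM (log2 1.13, spot SD 0.29). Its side of the 2-fold threshold is within spot noise. Of 7 leukocyte markers with a probe, 5 were detected, and their summed signal was 1648, 2084 and 2901. CD14, which hepatocytes also make, read 521, 1184 and 1847 and was 4.21-fold above control at 100 μM. PTPRC read 257, 131 and 288 by its brightest probe. It was 2.72-fold higher at 100 μM than at 10 μM, past 2-fold in 7 of 7 scalings. ITGAM and MS4A1 were not well above background. Of 7 endothelial and fibroblast markers, 4 were detected, and the summed signal of the 7 was 639, 447 and 393. Most of it came from PECAM1, which read 473, 298 and 286, whereas CDH5 read 47.9, 52.9 and 41.6. VWF was well above background only at 100 μM, at least 1.59-fold above control (log2 0.67, spot SD 0.67). COL1A1, COL1A2 and COL3A1 were not well above background. PDGFRB read 95.6, 67.0 and 22.5, the last not well above background, and was at least 3.58-fold lower at 100 μM than in the control. The part of these markers in the cytokine values was not tested.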

How the data were processed

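RNA of 3 HepG2 samples (control, 10 μM and 100 μM etoposide, 30 h) was hybridized to 1-color arrays on 1 slide. The authors deposited the scanner output of Agilent Feature Extraction 10.7.3.1 with the background-subtracted intensity of each spot, and, as other columns, the software's flags for signals well above background and for outlier spots. They also deposited a table of the whole series, whose intensity values equalled those of the scanner output for all 44495 spots of each array (relative tolerance 1e-06). Conditions were taken from the labels. The paper's table names the control DMSO.

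Log2 intensities were averaged over the spots of a probe without outlier spots, which dropped 9 of 34127 probes, and the log2 of the 75th percentile over the non-control probes of the array, each counted once, was subtracted. That percentile was 514 in the control, 537 at 10 μM and 433 at 100 μM. An earlier report on these data had noticed that counting each probe once matches fold changes printed by the study, so this choice is not independent of them. A gene was represented by its brightest probe. The brighter side of a fold had to be well above background in most spots, and for a dimmer side not well above background the higher of its own signal and the dimmest signal that passed this call on that array was used, which makes the fold a bound. Current symbols, promoters and motif shares came from RefSeq tables on GRCh38.p14. The files place the probes on hg18, and these positions were not converted. Spot-to-spot SDs came from the 50 repeated probes nearest in signal among 999 probes spotted 10 times on each array.

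The 10 genes and the surrounding lists were chosen with earlier results of these data known. Besides the 10 genes, the text names the genes of each list past a threshold and up to 4 others with the highest signal, and markers of other cell types. Alternatives were 6 other scalings, normexp (offset 50) in place of the software's background subtraction, 2 other rules for dim probes, keeping outlier spots, 2 other rules for genes with several probes, the series table and 2 other pairs of fold thresholds. The number of arrays limits the precision. Steps were tested on simulated arrays. Python 3.11.15, pandas 2.3.3, numpy 2.4.6, R 4.3.3 and limma 3.58.1 were used.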

Additional observations from a re-analysis of the deposited data

How the results depend on the processing

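The counts of the 10 genes past a threshold were compared over 15 alternatives, and 86 of 90 counts were 0, as reported. The other 4 counts were those of genes more than 2-fold lower at 100 μM than at 10 μM, which were 1, in each case CCL20, without scaling, with median scaling, with spike-in scaling and with thresholds of 2-fold over control and 1.5-fold between doses. The log2 fold of CCL20 kept its sign in 13 of 13 alternatives in all 3 comparisons, between 0.52 and 0.75 at 10 μM over control, between −0.46 and −0.07 at 100 μM over control and between −1.17 and −0.59 between the doses. That of IL1RN lay between 0.02 and 0.97, between 0.15 and 0.51 and between −0.77 and 0.15, and its sign turned between the doses only with its dimmest probe. No paired analysis was possible because there is a single array for every condition. All 3 arrays lay on 1 slide, so no slide block was fitted. Signal over background is a limit, since 8 of the 10 genes gave no fold change.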
